A study of Homo sapiens with 6 samples.

Results

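A set of 39 genes of homologous recombination, the Fanconi anemia pathway and the replication-stress checkpoint was followed in HSC-3 cells, an established line of human oral squamous cell carcinoma, under simulated microgravity and under normal gravity. The genes were chosen by symbol for their known function, with earlier results of these data known. All 39 were present among the 22941 genes of the deposited count table and among the 14736 with enough counts to be tested. The simulated microgravity group comprised 3 libraries of cells grown in the Rotary Cell Culture System, whose turning vessel keeps cells suspended, and the normal gravity group comprised 3 libraries. Both groups were the same line with no other treatment named, and the growth medium is described once for the study (DMEM with fetal bovine serum). Neither the time in culture nor the vessel used at normal gravity is given in the labels. The titles call the libraries biological replicates without describing how separate the cultures were, so the p-values reflect only how these 6 libraries vary, and some of that variation may be technical.

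Homologous recombination repairs a broken chromosome by copying the intact sister. The ends are first trimmed to single strands, a protein filament is then built on the exposed strand with the help of BRCA2 and its partners, and this filament invades the matching duplex. The Fanconi pathway acts on DNA strands that are cross-linked to each other: a core complex attaches ubiquitin to FANCD2 and FANCI, and the damage is then passed to nucleases, translesion polymerases and recombination. ATM, ATR and their effector kinases sense breaks and stalled forks and hold the cell cycle meanwhile. Because a sister copy is needed, recombination is used mainly in S and G2 phase, and many of its genes are transcribed most in those phases.

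Transcripts of 34 of the 39 genes fell under simulated microgravity and 0 rose (edgeR's quasi-likelihood test, Benjamini-Hochberg adjusted p under 0.05 over all tested genes), against 29.3% of all tested genes that fell and 28.2% that rose. The 5 that did not pass were PALB2, RAD51B, HELQ, FANCE and ATR. At an unadjusted p under 0.05, 34 were lower and 0 higher, and no member was called higher in DESeq2 or limma-voom. The median log2 fold change, simulated microgravity minus normal gravity, was -1.73 over the 39 genes, with a range of -6.09 to 0.10, against -0.01 over all tested genes. Of the 34, 28 fell at least 2-fold, 17 at least 4-fold and 12 at least 8-fold. In 35 of the 39 genes all 3 simulated microgravity libraries lay below all 3 normal gravity libraries, as did 33.3% of all tested genes. The groups overlapped in PALB2, HELQ, FANCE and ATR.

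**Figure D1:**
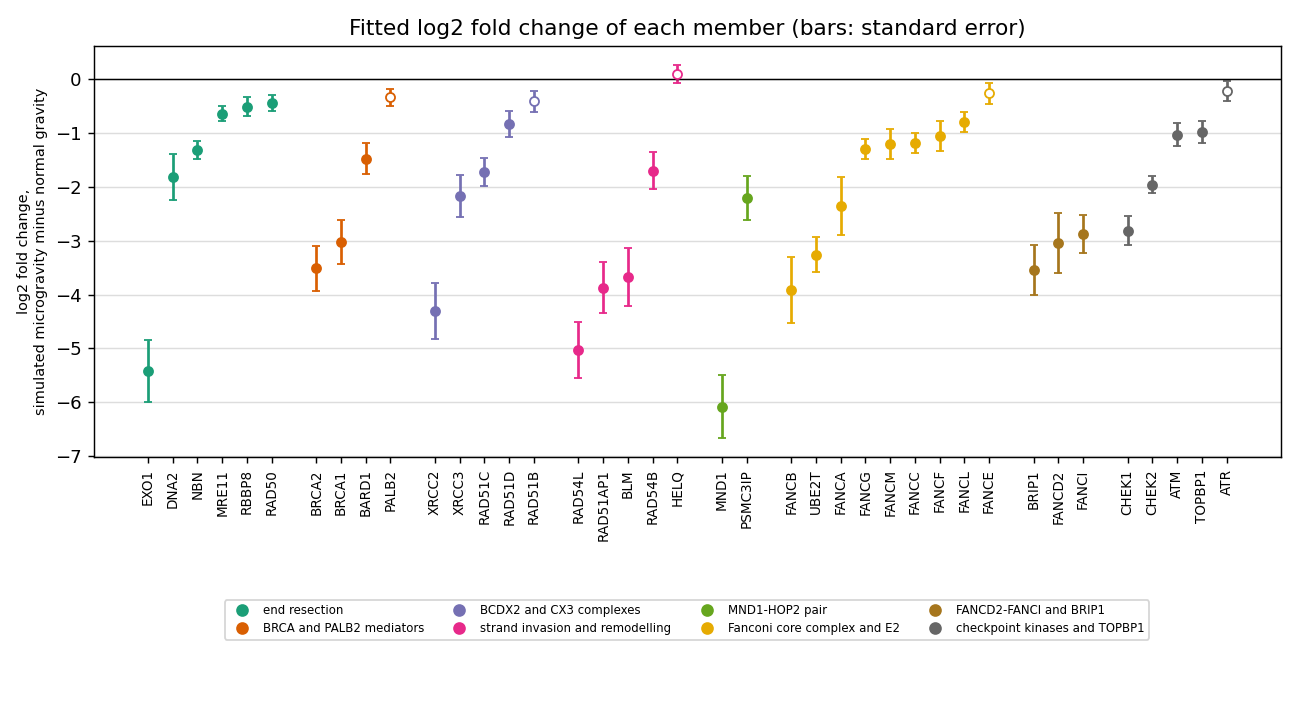
Log2 fold change of each of the 39 genes, simulated microgravity minus normal gravity, with bars of 1 standard error, grouped by role; filled markers passed an adjusted p of 0.05 in edgeR's quasi-likelihood test and open markers did not. Values run from -6.09 for MND1 to 0.10 for HELQ, and the 5 open markers lie closest to 0.

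The libraries held 34264008 to 36317678 counts under simulated microgravity and 37276166 to 38861233 at normal gravity, so values, given as counts-per-million (CPM), rest on a similar depth in both groups. The third normal gravity library stood apart from the other 2. It was the lowest of its group in 34 of the 39 genes and more than 2-fold below both others in 18, with a median log2 difference from the others of -0.93, from -2.15 in FANCA to 0.49 in FANCF. The summed CPM of the 39 genes was 505, 559 and 489 under simulated microgravity, against 1391, 1556 and 860.1 at normal gravity. Without that library, 36 genes fell and the median log2 fold change was -2.01. Of 8 tested squamous epithelial markers, 3 rose, 3 fell and 2 were not called, and their summed CPM was 5198 to 6147 under simulated microgravity, against 11996 to 20439 at normal gravity; the cadherin CDH1 rose by 1.26 on the log2 scale and the basal keratin KRT14 had -3.41. Immune markers summed to 264 to 286 CPM under simulated microgravity, against 110.1 to 136 at normal gravity, carried by CD14 and CD68, while PTPRC, the leukocyte marker CD45, did not exceed 0.186 CPM in any library. Fibroblast markers summed to 18.3 to 19.0 CPM under simulated microgravity against 12.7 to 30.7 CPM at normal gravity, with 0 of 4 tested called. DCN had a log2 fold change of 1.15 (adjusted p = 0.158) and PDGFRB of -0.92 (adjusted p = 0.268). Endothelial markers summed to 2.18 to 3.52 CPM under simulated microgravity against 1.60 to 5.76 CPM at normal gravity. CDH5 was called at 3.73, and VWF was not called (adjusted p = 0.51). CDH5 was near the floor, with 21, 14 and 45 counts under simulated microgravity against 0, 1 and 5 at normal gravity.

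Cell cycle genes moved together with the 39 genes. A list of 24 mitosis genes fell in all 24 (median log2 fold change -4.86), and its summed CPM was 99.3, 123 and 123 under simulated microgravity, against 3129.8, 4029.5 and 1715 at normal gravity. Of 30 DNA replication genes, 29 fell, with a median of -2.51 and summed CPM of 534, 541 and 562 under simulated microgravity, against 2824, 3057 and 1105 at normal gravity. Named by the rule for each list, the centromere histone CENPA fell by 5.07 on the log2 scale, the securin PTTG1 by 3.67, the thymidylate synthase TYMS by 4.91 and the primase subunit PRIM1 by 2.69. The third normal gravity library was again the lowest of its group in both sums. Of 14 keratinocyte differentiation genes, 12 rose, and the list summed to 6536, 4439 and 5962 CPM under simulated microgravity, against 63.4, 42.2 and 109 CPM at normal gravity. The cornified envelope genes SPRR2A and SPRR3 rose by 9.83 and 9.49 on the log2 scale. The other 2 genes, the suprabasal keratins KRT1 (log2 fold change -4.30, adjusted p = 0.0585, with 16.5 CPM in normal gravity library 3) and KRT10 (-0.13), were not called. The part of these shifts in the changes of repair genes was not tested, and in bulk libraries fewer cells of a type and less RNA per cell cannot be told apart.

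**Figure D2:**
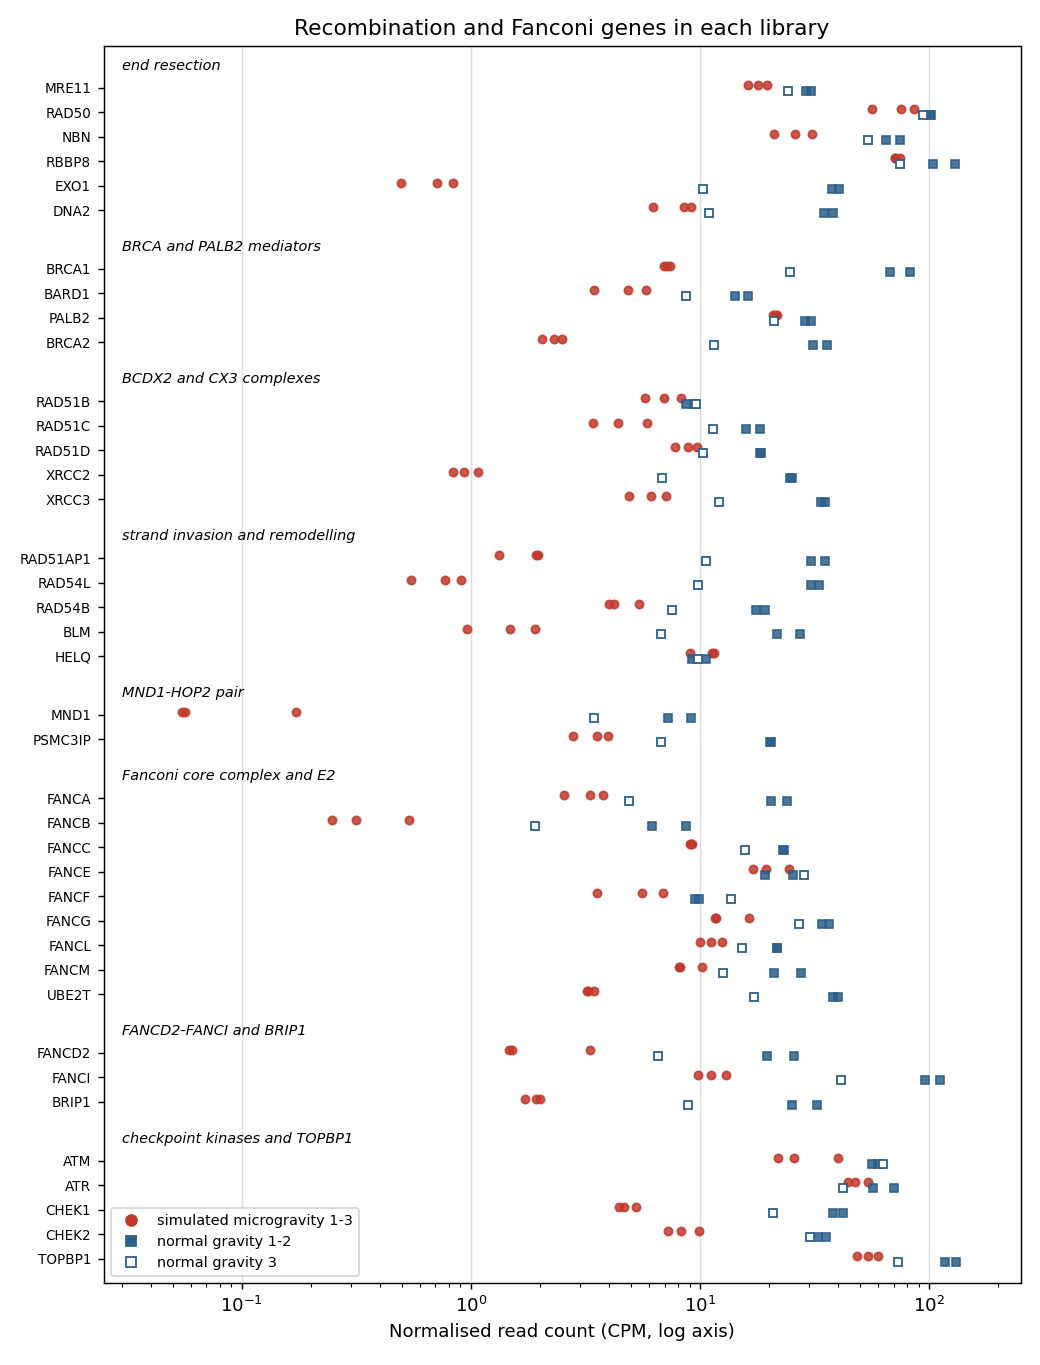
CPM of each of the 39 genes in every library on a log axis, grouped by role, with simulated microgravity libraries as circles and normal gravity libraries as squares, the third of them open. In 35 genes the simulated microgravity libraries lie below all normal gravity libraries; the third normal gravity library is the lowest of its group in 34.

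Promoter windows of the genes were read from RefSeq (build GRCh38.p14), because most of the genes moved in 1 direction; 35 of the 39 had an entry of 250 bases before to 50 bases after the start. The letters of the core of an E2F-type site, the element known from many S phase genes, were searched on both strands as TTTCCCGC, TTTCGCGC, TTTGCCGC and TTTGGCGC. They occurred in 7 of the 35 windows, or 20%, against 908 of 27305 RefSeq promoters of the same length, or 3.33%, and 753 of 17034 promoters of genes in the count table, or 4.42%. Stretches with these letters in capitals are printed for those 7 genes, MND1 to FANCC, and the same stretch around the start is printed for ATR and FANCE, which were not called and held no such letters in the searched window.
MND1 (chr4:153344618-153344717, plus strand): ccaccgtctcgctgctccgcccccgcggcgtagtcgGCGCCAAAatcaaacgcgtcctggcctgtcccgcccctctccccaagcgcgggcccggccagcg
EXO1 (chr1:241848134-241848233, plus strand): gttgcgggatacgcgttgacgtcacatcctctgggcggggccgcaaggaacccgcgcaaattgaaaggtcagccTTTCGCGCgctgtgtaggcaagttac
FANCD2 (chr3:10026367-10026466, plus strand): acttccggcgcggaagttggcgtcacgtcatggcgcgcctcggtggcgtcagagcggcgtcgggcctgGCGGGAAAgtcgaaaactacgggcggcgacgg
XRCC2 (chr7:152676112-152676211, minus strand): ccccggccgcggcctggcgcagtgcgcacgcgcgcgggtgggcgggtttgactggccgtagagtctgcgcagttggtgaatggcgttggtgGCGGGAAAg
TOPBP1 (chr3:133661912-133662011, minus strand): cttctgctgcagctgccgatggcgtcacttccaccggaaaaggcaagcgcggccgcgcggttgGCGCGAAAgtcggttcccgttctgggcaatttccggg
FANCA (chr16:89816748-89816847, minus strand): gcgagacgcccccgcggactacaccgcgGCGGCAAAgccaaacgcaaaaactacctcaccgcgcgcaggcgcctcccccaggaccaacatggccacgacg
FANCC (chr9:95317680-95317899, minus strand): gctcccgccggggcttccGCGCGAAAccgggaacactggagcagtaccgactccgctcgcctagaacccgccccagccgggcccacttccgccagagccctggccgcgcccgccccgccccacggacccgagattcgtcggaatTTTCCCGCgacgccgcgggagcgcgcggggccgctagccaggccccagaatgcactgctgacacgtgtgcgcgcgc
ATR (chr3:142578704-142578803, minus strand): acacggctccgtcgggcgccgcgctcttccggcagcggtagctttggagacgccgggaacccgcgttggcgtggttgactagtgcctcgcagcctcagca
FANCE (chr6:35452268-35452367, plus strand): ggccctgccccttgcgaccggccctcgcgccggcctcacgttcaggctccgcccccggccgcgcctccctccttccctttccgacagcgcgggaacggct
All 7 genes with the letters fell, as did 30 of the 35 searched in all: MND1, EXO1, XRCC2, FANCD2 and FANCA at least 4-fold, and FANCC and TOPBP1 less. FANCC held 2 matches. The median log2 fold change was -3.04 over the 7 genes with the letters and -1.38 over the 28 without, which include RAD54L, a gene that fell by 5.03 on the log2 scale. Letters of the cell cycle homology region, known from genes of G2 and mitosis and searched as TTTGAA and TTCGAA on both strands, occurred in 5 of the 35 windows (HELQ, FANCC, UBE2T, BRIP1 and ATM), or 14.3%, against 16.6% of all RefSeq promoters and 13.2% of promoters of genes in the count table. No match of the one type overlapped a match of the other. A match describes letters in a window and is not a measured site, and an empty window says only that these letters are not in it. Each gene was searched at a single start. For BRCA1, among the genes without E2F-type letters, this was its outermost RefSeq start, and its other starts were not searched. The shares were not matched for base composition.

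The genes that trim broken ends fell in 6 of 6, but by very different amounts. EXO1, the exonuclease that resects over long distances, had 0.833, 0.708 and 0.495 CPM in simulated microgravity libraries 1, 2 and 3, against 37.5, 40.2 and 10.3 CPM at normal gravity. Even the third normal gravity library stayed far above every simulated microgravity library. The log2 fold change was -5.43 (SE 0.58, adjusted p = 0.000173), at rank 45 from the lowest of all tested genes. DNA2, the nuclease and helicase that resects in parallel to EXO1, had 9.11, 8.50 and 6.24 CPM under simulated microgravity against 34.9, 38.2 and 11.0 CPM at normal gravity. Its groups did not overlap, although the third normal gravity library came close. The log2 fold change was -1.82 (SE 0.43, adjusted p = 0.0082), and without the filter on low counts DNA2 did not pass (adjusted p = 0.0513).

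The complex of MRE11, RAD50 and NBN, which binds broken ends first and recruits ATM, had smaller log2 fold changes than EXO1 and DNA2, and all 3 of its genes fell. NBN, the subunit that docks ATM, had 25.9, 30.9 and 21.0 CPM under simulated microgravity, against 64.7, 74.5 and 54.2 CPM at normal gravity, a log2 fold change of -1.31 (adjusted p = 0.000325, SE 0.17). Every simulated microgravity library was clearly below every normal gravity library. MRE11, the nuclease subunit, had 17.8, 19.6 and 16.2 CPM under simulated microgravity against 30.3, 28.9 and 24.2 CPM at normal gravity, with no overlap (log2 fold change -0.64, SE 0.14, adjusted p = 0.00503). RAD50, the coiled-coil subunit that tethers ends, had 75.2, 86.0 and 56.3 CPM under simulated microgravity against 100.3, 102 and 93.4 CPM at normal gravity, a log2 fold change of -0.44 (adjusted p = 0.0331, SE 0.15). Its lowest library was the third of simulated microgravity, without which the log2 fold change was -0.29 (adjusted p = 0.0816). RAD50 also missed the threshold without simulated microgravity library 1 (adjusted p = 0.0782), normal gravity library 1 (0.0772) or normal gravity library 2 (0.0689). RBBP8, the nuclease cofactor CtIP that starts resection, had 71.1, 70.7 and 74.5 CPM under simulated microgravity against 103, 129 and 74.6 CPM at normal gravity, with the third normal gravity library almost level with the simulated microgravity group. It fell by 0.51 on the log2 scale (SE 0.18, adjusted p = 0.0398) but missed the threshold without any 1 of 5 libraries, with adjusted p of 0.112, 0.108 and 0.0928 without simulated microgravity 1, 2 and 3 and 0.0857 and 0.121 without normal gravity 1 and 2.

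Of the mediator proteins, BRCA1, BARD1 and BRCA2 fell and PALB2 was not called. BRCA1, the ubiquitin ligase and scaffold that favours recombination over end joining, had 6.95, 7.20 and 7.37 CPM under simulated microgravity, against 67.4, 82.5 and 24.6 CPM at normal gravity. The simulated microgravity libraries were nearly equal, and the normal gravity libraries differed among themselves by more than 3-fold. BRCA1 fell by 3.02 on the log2 scale (SE 0.41, adjusted p = 0.000552). BARD1, its obligate RING partner, had 3.45, 4.85 and 5.80 CPM under simulated microgravity against 14.2, 16.2 and 8.66 CPM at normal gravity, and fell by 1.47 on the log2 scale (SE 0.29, adjusted p = 0.0026). BRCA2, the mediator that helps the filament form on single-stranded DNA, had 2.04, 2.49 and 2.31 CPM under simulated microgravity against 31.1, 35.7 and 11.5 CPM at normal gravity, a log2 fold change of -3.51 (adjusted p = 0.000301, SE 0.42). Its mean was 11.4-fold lower under simulated microgravity. PALB2, the bridge between BRCA1 and BRCA2, had 20.9, 21.2 and 21.6 CPM under simulated microgravity against 28.7, 30.6 and 21.0 CPM at normal gravity. The third normal gravity library lay among the simulated microgravity libraries, and the log2 fold change was -0.34 (SE 0.16, adjusted p = 0.101). Without the third normal gravity library PALB2 passed, at -0.48 (adjusted p = 0.00422).

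RAD51B, RAD51C, RAD51D, XRCC2 and XRCC3 are related proteins that form complexes which stabilise the filament, and 4 of these 5 genes fell. XRCC2 had 0.833, 1.08 and 0.935 CPM under simulated microgravity, against 24.7, 25.1 and 6.80 CPM at normal gravity, and its log2 fold change was -4.31 (SE 0.53, adjusted p = 0.000325). Even its lowest normal gravity library was several times its highest simulated microgravity library. XRCC3 had 6.09, 4.87 and 7.06 CPM under simulated microgravity against 33.7, 35.2 and 12.1 CPM at normal gravity (log2 fold change -2.17, SE 0.39, adjusted p = 0.00226). RAD51C, partner of XRCC3 in 1 complex and of RAD51B, RAD51D and XRCC2 in another, had 3.42, 4.39 and 5.88 CPM under simulated microgravity against 15.8, 18.2 and 11.4 CPM at normal gravity (log2 fold change -1.73, SE 0.26, adjusted p = 0.000677). Both were separated between the groups. RAD51D had 9.74, 8.84 and 7.81 CPM under simulated microgravity against 18.3, 18.4 and 10.3 CPM at normal gravity and fell by 0.84 on the log2 scale (SE 0.24, adjusted p = 0.0168). It missed the threshold narrowly without simulated microgravity 2 (adjusted p = 0.0513), simulated microgravity 3 (0.068), normal gravity 1 (0.0638) or normal gravity 2 (0.0501). RAD51B had 6.92, 5.72 and 8.25 CPM under simulated microgravity against 9.42, 8.65 and 9.59 CPM at normal gravity. All 3 simulated microgravity libraries were lower, but the log2 fold change of -0.40 (SE 0.20) was not called (adjusted p = 0.108).

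Factors of strand invasion and its remodelling included some of the largest falls. RAD54L, the motor protein that helps strands exchange, had 0.546, 0.907 and 0.770 CPM under simulated microgravity, against 30.4, 33.1 and 9.75 CPM at normal gravity. Its mean was 33.0-fold lower, with no overlap (log2 fold change -5.03, SE 0.52, adjusted p = 0.000152). The third normal gravity library, lowest of its group, was still far above them. RAD54B, a related motor, had 3.99, 4.22 and 5.39 CPM under simulated microgravity against 17.5, 19.2 and 7.52 CPM at normal gravity and fell by 1.70 on the log2 scale (SE 0.34, adjusted p = 0.00315). RAD51AP1, which binds DNA and stimulates strand invasion, had 1.32, 1.96 and 1.92 CPM under simulated microgravity against 30.5, 35.2 and 10.6 CPM at normal gravity (log2 fold change -3.87, SE 0.47, adjusted p = 0.00031). BLM, the helicase that dissolves double Holliday junctions, had 1.90, 1.47 and 0.962 CPM under simulated microgravity against 21.7, 27.2 and 6.77 CPM at normal gravity (log2 fold change -3.68, SE 0.54, adjusted p = 0.000787). In these 4 genes the third normal gravity library was the lowest of its group and still above all simulated microgravity libraries. HELQ, a helicase that anneals and unwinds at stalled forks, differed from them: it had 11.3, 11.4 and 8.99 CPM under simulated microgravity against 9.21, 10.6 and 9.75 CPM at normal gravity. Its groups overlapped, and the log2 fold change of 0.10 (SE 0.17, adjusted p = 0.638) was the single positive value of the 39.

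The pair of MND1 and PSMC3IP (HOP2), known best from meiosis, was detected in these somatic tumour cells. MND1 had 6, 2 and 2 counts under simulated microgravity, or 0.172, 0.0567 and 0.0550 CPM, against 7.27, 9.16 and 3.43 CPM at normal gravity. Hardly any reads were thus counted for it in the simulated microgravity libraries. The mean was 69.9-fold lower, and the fitted log2 fold change was -6.09 (SE 0.58, adjusted p = 6.68e-05), at rank 17 from the lowest of all tested genes. Without simulated microgravity library 1, which held most of the counts, it was -6.80. PSMC3IP had 3.56, 2.78 and 3.96 CPM under simulated microgravity against 20.3, 20.4 and 6.77 CPM at normal gravity and fell by 2.20 on the log2 scale (SE 0.41, adjusted p = 0.00235) without overlap. Other meiotic genes were mostly too low to test: of 17 in the table, 5 were tested. HSF2BP, a BRCA2-binding factor of meiosis, was the 1 that fell (log2 fold change -2.15, SE 0.67, adjusted p = 0.0235), and it had 2 counts in simulated microgravity library 1. The count of meiotic genes that fell was 0 without normal gravity library 1, 2 without simulated microgravity 1 or 2 and 3 without normal gravity 3. DMC1, which acts in strand exchange in meiosis, was not tested, with 0 CPM in all simulated microgravity libraries against 0.549, 1.36 and 0.133 CPM at normal gravity.

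In the Fanconi core complex and its ubiquitin-conjugating enzyme, 8 of 9 genes fell, and the median log2 fold change was -1.21. UBE2T, the conjugating enzyme (E2) of the pathway, had 3.25, 3.46 and 3.22 CPM under simulated microgravity, against 37.9, 39.9 and 17.2 CPM at normal gravity. Its simulated microgravity libraries were nearly equal, and the log2 fold change was -3.26 (SE 0.32, adjusted p = 9.13e-05). FANCB, part of the catalytic module around the ligase FANCL, had 0.316, 0.538 and 0.247 CPM under simulated microgravity against 6.17, 8.70 and 1.91 CPM at normal gravity, a log2 fold change of -3.92 (adjusted p = 0.00086, SE 0.61). FANCL itself, the RING ligase, had 9.97, 11.2 and 12.5 CPM under simulated microgravity against 21.6, 21.6 and 15.2 CPM at normal gravity and fell by 0.80 on the log2 scale (SE 0.19, adjusted p = 0.00627). The ligase thus fell less than its E2 and its partner, and the groups overlapped in none of these 3 genes.

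FANCA, the core subunit most often mutated in Fanconi anemia, had 3.30, 2.55 and 3.77 CPM under simulated microgravity, against 20.4, 23.9 and 4.91 CPM at normal gravity (log2 fold change -2.36, SE 0.54, adjusted p = 0.0066). The third normal gravity library was nearer to the simulated microgravity group than to its own. FANCG, which binds FANCA, had 11.7, 11.6 and 16.4 CPM under simulated microgravity against 34.2, 36.3 and 26.9 CPM at normal gravity and fell by 1.29 on the log2 scale (SE 0.19, adjusted p = 0.000518). FANCM, the translocase that brings the core complex to DNA, had 8.10, 10.2 and 8.14 CPM under simulated microgravity against 20.9, 27.5 and 12.6 CPM at normal gravity and fell by 1.21 on the log2 scale (SE 0.27, adjusted p = 0.00563). Both were separated between the groups. The module of FANCC, FANCE and FANCF, which links the ligase to its substrate, was divided. FANCC had 9.05, 9.21 and 9.10 CPM under simulated microgravity against 23.1, 23.2 and 15.8 CPM at normal gravity and fell by 1.18 on the log2 scale (SE 0.18, adjusted p = 0.000791), and FANCF had 3.53, 6.89 and 5.58 CPM under simulated microgravity against 9.89, 9.47 and 13.7 CPM at normal gravity and fell by 1.05 on the log2 scale (SE 0.28, adjusted p = 0.0114). FANCE had 19.5, 16.9 and 24.4 CPM under simulated microgravity against 25.3, 19.2 and 28.4 CPM at normal gravity, with overlapping groups, and was not called (log2 fold change -0.26, SE 0.19, adjusted p = 0.278).

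Both substrates of the core complex fell, as did BRIP1. FANCD2 had 1.47, 3.32 and 1.51 CPM under simulated microgravity, against 19.5, 25.8 and 6.53 CPM at normal gravity, a log2 fold change of -3.04 (adjusted p = 0.00228, SE 0.55). Its partner FANCI had 9.82, 12.9 and 11.2 CPM under simulated microgravity against 95.3, 112 and 41.3 CPM at normal gravity, a log2 fold change of -2.87 (adjusted p = 0.00034, SE 0.35). The second simulated microgravity library was the highest of its group in both. BRIP1, the BRCA1-associated helicase FANCJ, had 1.72, 1.93 and 2.01 CPM under simulated microgravity against 25.1, 32.4 and 8.82 CPM at normal gravity (log2 fold change -3.55, SE 0.47, adjusted p = 0.000461). FANCD2 has pseudogene copies of near-identical sequence, as has CHEK2, so the reads counted for these genes are uncertain to the extent that copies shared them.

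Among 5 checkpoint genes 4 fell, and the lowest log2 fold changes were those of the effector kinases. CHEK1, the effector of ATR, had 5.26, 4.42 and 4.65 CPM under simulated microgravity, against 38.0, 41.9 and 20.9 CPM at normal gravity, a log2 fold change of -2.81 (adjusted p = 6.69e-05, SE 0.27). No normal gravity library came near the simulated microgravity values. CHEK2, the effector of ATM, had 7.24, 9.86 and 8.25 CPM under simulated microgravity against 32.6, 35.6 and 30.1 CPM at normal gravity, a log2 fold change of -1.95 (SE 0.16). At 3.22e-05 its adjusted p was the smallest of the 39, with the third normal gravity library close to the others. ATM had 25.7, 40.1 and 21.9 CPM under simulated microgravity against 56.3, 59.8 and 62.9 CPM at normal gravity and fell by 1.03 on the log2 scale (SE 0.21, adjusted p = 0.00328). Here the third normal gravity library was the highest of its group. TOPBP1, the activator of ATR, had 54.2, 59.7 and 48.5 CPM under simulated microgravity against 116, 130.1 and 72.8 CPM at normal gravity and fell by 0.98 on the log2 scale (SE 0.21, adjusted p = 0.00404). ATR, the kinase of stalled forks, had 47.4, 53.8 and 44.4 CPM under simulated microgravity against 56.6, 70.4 and 42.1 CPM at normal gravity. Its lowest value of all was the third normal gravity library, and the log2 fold change of -0.22 (SE 0.18) was not called (adjusted p = 0.337). Without that library ATR passed, at -0.39 (adjusted p = 0.0198).

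For 10 pairs of genes with linked roles, the log2 ratio of the first gene's counts to the second's was taken within each library. This needs no scaling between libraries. Not all pairs are subunits of a shared complex: EXO1 and DNA2 act in parallel, and CHEK1 and CHEK2 are effectors of ATR and ATM. In 8 pairs all 3 simulated microgravity ratios lay below all 3 normal gravity ratios, a count that was not set against other gene pairs. The pairs and the order within them followed no rule set in advance. In every pair the first-named gene had the lower log2 fold change, so the direction of the ratios restates the fold changes given above. The ratio of MND1 to PSMC3IP, which rests on 10 counts of MND1 under simulated microgravity, was -5.38 ± 0.92 under simulated microgravity and -1.21 ± 0.25 at normal gravity (SD, n = 3 each, difference -4.18). EXO1 to DNA2 was -3.56 ± 0.10 under simulated microgravity against 0.03 ± 0.10 at normal gravity, BRCA2 to PALB2 was -3.22 ± 0.13 under simulated microgravity against -0.18 ± 0.60 at normal gravity, and XRCC2 to RAD51D was -3.22 ± 0.29 under simulated microgravity against 0.09 ± 0.60. at normal gravity In EXO1 to DNA2 the libraries of each group were close to each other. FANCB to FANCL shifted by -2.97, CHEK1 to ATR by -2.57, BRCA1 to BARD1 by -1.39 and CHEK2 to ATM by -0.89. Ratios of FANCD2 to FANCI, at -2.53 ± 0.50 under simulated microgravity against -2.36 ± 0.28 at normal gravity, and of XRCC3 to RAD51C, at 0.42 ± 0.37 under simulated microgravity against 0.71 ± 0.55 at normal gravity, overlapped between the groups. With 3 libraries a group the exact two-sided permutation test cannot go below p = 0.1, which the 8 pairs reached (0.125 after Benjamini-Hochberg adjustment over the 10 pairs), and the other 2 gave p = 0.5 and 0.7.

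**Figure D3:**
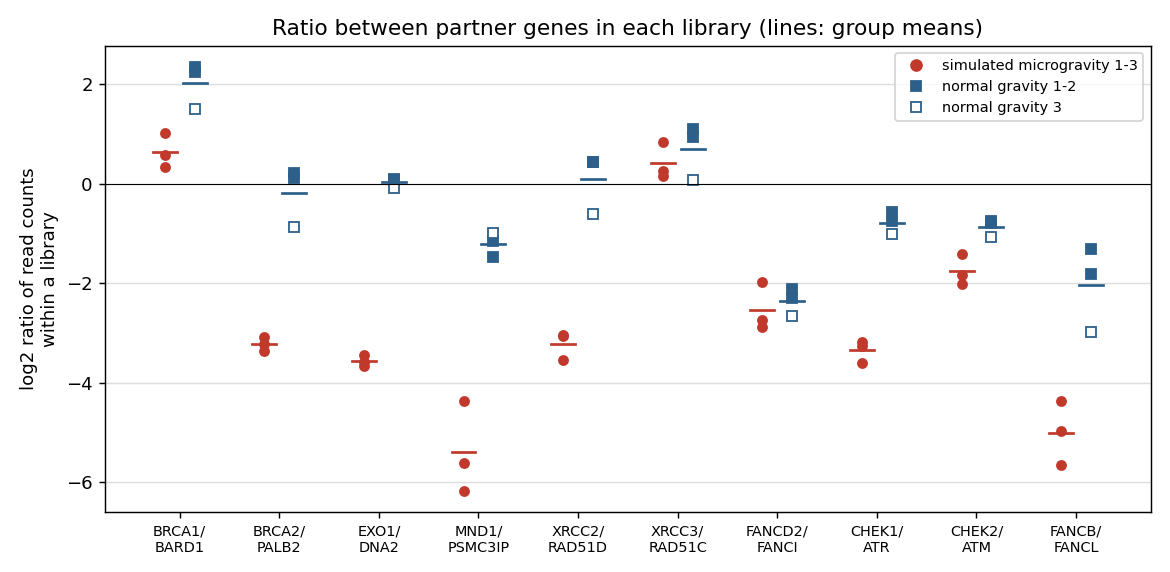
Log2 ratio of the counts of the first to the second gene of 10 pairs in each library, simulated microgravity and normal gravity side by side. The groups are separated in 8 pairs and overlap for XRCC3 to RAD51C and FANCD2 to FANCI.

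Levels between genes were compared as CPM per kilobase of exon. The length is a union over the transcripts of a gene in a basic annotation set. It can exceed the length of the RNA present, and the ranks depend on it. RAD51D, for example, had a union of 10.19 kilobases against 2.96 for RAD51C, with 15.7 and 15.2 CPM at normal gravity. At normal gravity UBE2T was the highest of the 39, at 34.9 CPM per kilobase, followed by RBBP8 at 27.7, TOPBP1 at 17.3 and FANCI at 16.0. Under simulated microgravity UBE2T had 3.64 CPM per kilobase and rank 11, and RBBP8 at 19.5, TOPBP1 at 8.78 and RAD50 at 8.73 were highest. EXO1 took rank 36 under simulated microgravity against rank 13 at normal gravity, RAD54L rank 35 under simulated microgravity against rank 15 at normal gravity, and HELQ, which was not called, rank 12 under simulated microgravity against rank 32 at normal gravity. Several low ranks under simulated microgravity thus belong to genes of middle rank at normal gravity. The lowest under simulated microgravity were MND1 at 0.0862, FANCB at 0.122 and BRCA2 at 0.190, and at normal gravity RAD51D at 1.54 and FANCB at 1.86 CPM per kilobase. Standard deviations at normal gravity, such as 13.9 for UBE2T and 7.40 for RBBP8, exceeded the step between them, so their order there does not stand beyond the spread.

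Several of the genes share a divergent start region with a neighbour on the opposite strand, with RefSeq starts within 1000 bases of each other. Of 15 such neighbours, 11 were tested, and in 9 of these pairs the repair gene fell. The neighbour fell in 1 of the 9, rose in 2 and was not called in 6. Of all tested genes, 29.3% fell and 28.2% rose. BRCA1 and NBR1, an autophagy receptor whose start lies 82 bases from the outermost RefSeq start of BRCA1 (where its promoter window was also taken), moved in opposite directions: NBR1 had 403 ± 23.6 CPM under simulated microgravity, against 175 ± 21.5 CPM at normal gravity (SD, n = 3 each), and its log2 fold change was 1.20 (SE 0.12, adjusted p = 9.05e-05). Whether BRCA1 was transcribed from that outermost start in these cells was not tested, so the 2 genes may not share a start region in use. ZFYVE21, beside XRCC3, rose by 0.52 on the log2 scale (SE 0.11, adjusted p = 0.00394). NPAT, the histone gene activator beside ATM, fell by 0.47 on the log2 scale (SE 0.15, adjusted p = 0.0225).

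The 6 neighbours that were not called were ANKRD49 of MRE11, FERRY3 of RAD51AP1, MOSPD2 of FANCB, HSCB of CHEK2, LOC118567325 of CHEK1 and TF of TOPBP1. LOC118567325 averaged 0.341 CPM under simulated microgravity and 0.291 CPM at normal gravity, and TF 0.416 and 0.264 CPM. At such levels a missing call says little (SE 0.66 and 0.83). Each pair rests on a single RefSeq start per gene, and use of these starts in these cells was not tested. Of the genes that were not called themselves, PALB2 had the neighbour DCTN5, a dynactin subunit, which rose by 0.36 on the log2 scale (SE 0.10, adjusted p = 0.0164), and HELQ had MRPS18C, a mitochondrial ribosome protein, at 0.09 (adjusted p = 0.691). SNHG31 of BARD1, ZAR1L of BRCA2, IGBP1C of RAD51C and CRTC3-AS1 of BLM were too low to test. FANCB and MOSPD2, for example, had log2 fold changes of -3.92 and 0.14 (adjusted p = 0.446 for MOSPD2), and RAD51AP1 and FERRY3 of -3.87 and 0.18 (adjusted p = 0.479 for FERRY3). No source used here says whether counting used strand, and 16 of the 39 genes are overlapped by a gene of the table on the opposite strand, so reads in such overlaps cannot be told apart. NBR2, a non-coding gene on the opposite strand within the span of BRCA1, is such a gene. It rose by 0.85 on the log2 scale (adjusted p = 0.0114). That span runs to the outermost RefSeq start of BRCA1. Neighbours were sought at a single start per gene, so NBR2 was not considered as a divergent neighbour of another BRCA1 start.

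**Figure D4:**
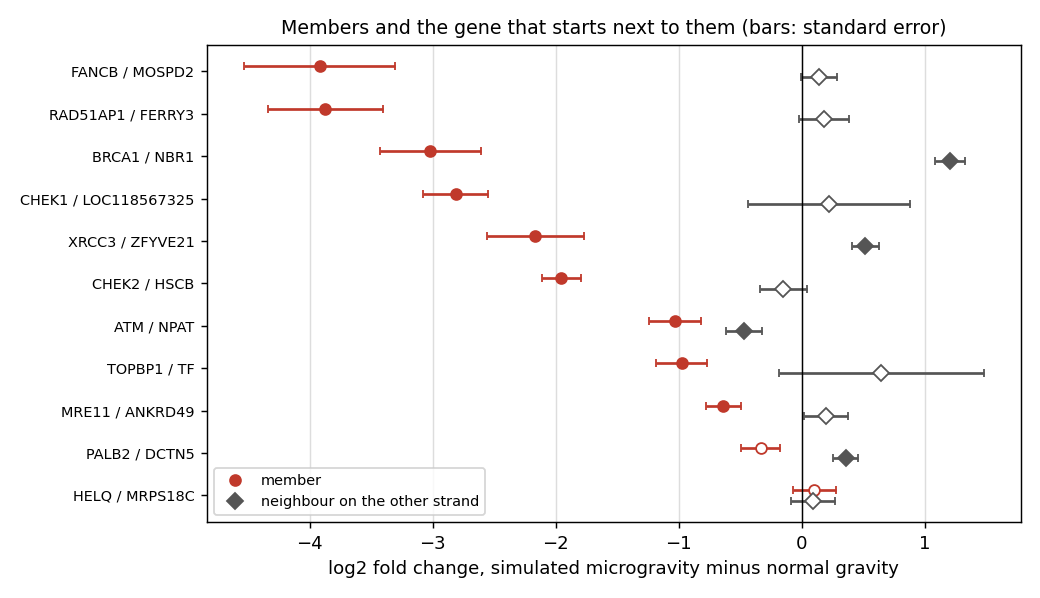
Log2 fold change, simulated microgravity minus normal gravity, of each tested repair gene and of its divergent neighbour (circles and diamonds, open where not called), with bars of 1 standard error. BRCA1 (-3.02) and NBR1 (1.20), paired by the outermost RefSeq start of BRCA1, lie on opposite sides of 0. NPAT of ATM is the single neighbour that fell.

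Other genes of the same and adjoining pathways were counted in the same way. Of 38 other recombination factors, 19 fell and 2 rose, and their median log2 fold change was -0.43. PARPBP, an inhibitor of recombination, fell by 3.24 on the log2 scale (SE 0.32, adjusted p = 7.79e-05), while EME2, a partner of the nuclease MUS81, had 23.2 ± 1.27 CPM under simulated microgravity, against 9.73 ± 0.804 CPM at normal gravity (SD, n = 3 each), and rose by 1.25 on the log2 scale (SE 0.14, adjusted p = 0.000152). EME1, the other MUS81 partner, was singled out after its value was seen and fell by 4.02 on the log2 scale (SE 0.51, adjusted p = 0.000299). The 2 MUS81 partners thus moved in opposite directions. The count of genes that rose was 1 without simulated microgravity library 1.

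Of 12 other Fanconi factors, 5 fell, 1 rose and 6 were not called, with a median of -0.43. MAD2L2, a subunit of translesion polymerase zeta and of shieldin, fell by 1.59 on the log2 scale (SE 0.15, adjusted p = 7.21e-05), and WDR48, which activates the FANCD2 deubiquitinase USP1, rose by 0.30 on the log2 scale (SE 0.10, adjusted p = 0.0344). The count of genes that fell in this list was 8 without normal gravity library 3, 2 without normal gravity 1 or simulated microgravity 1 and 3 without simulated microgravity 2 or 3. The count of genes that rose was 0 when any library other than normal gravity 3 was left out, and also with upper-quartile scaling. Of 16 other checkpoint factors, 10 fell and 2 rose, with a median of -0.83: MDC1, the adaptor that reads the damage-marked histone, fell by 1.94 on the log2 scale (SE 0.15, adjusted p = 2.78e-05), and HUS1, part of the clamp that activates ATR, rose by 1.19 on the log2 scale (SE 0.15, adjusted p = 0.000298). The count of genes that rose was 1 without simulated microgravity 1 or 3.

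Of 22 end-joining genes, the main alternative to recombination, 10 fell and 3 rose, with a median of -0.44. LIG4, the ligase of classical end joining, had 35.9 ± 2.64 CPM under simulated microgravity, against 18.1 ± 0.735 CPM at normal gravity, and rose by 0.98 on the log2 scale (SE 0.12, adjusted p = 0.000208). PARP1, the sensor of strand breaks, had 48.9 ± 3.88 CPM under simulated microgravity against 237 ± 50.8 CPM at normal gravity (SD, n = 3 each) and fell by 2.28 on the log2 scale (SE 0.17, adjusted p = 2.06e-05). POLQ, the polymerase of the alternative, microhomology-driven route, was singled out after its value was seen and fell by 5.04 on the log2 scale (SE 0.58, adjusted p = 0.000253). The count of genes that rose was 1 when any library other than normal gravity 3 was left out, and also 1 with upper-quartile scaling.

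**Figure D5:**
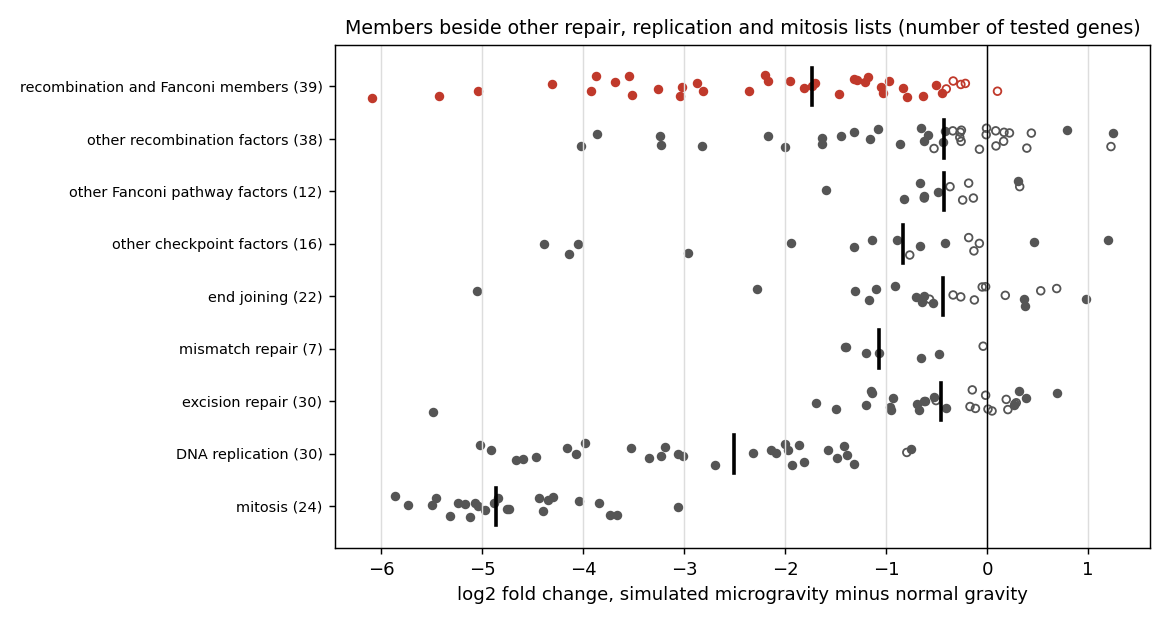
Log2 fold changes, simulated microgravity minus normal gravity, of the tested genes in each list (open where not called), with a black bar at each list's median. The 39 repair genes have a median of -1.73, other recombination factors -0.43, DNA replication genes -2.51 and mitosis genes -4.86.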

How the data were processed

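RNA-seq was done on 6 HSC-3 libraries, grouped by their titles. The authors deposited raw, whole-number read counts per gene in a single table. The submitters' processing notes name the hg38 build and the tools HTSeq, HISAT, fastp, DESeq2 and R 3.2.0, without their roles. The annotation release and the strand setting are stated neither there nor in the labels. The table's column names give a group and a number: the rotary culture name is in the treatment protocol, and the other was taken as normal gravity by elimination. Counts of libraries within a group differed by more than sampling noise.

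Genes with low counts were removed with filterByExpr (minimum count 10), counts were scaled by TMM factors and both groups were compared with edgeR's robust quasi-likelihood F-test (edgeR 4.0.16, R 4.3.3). P-values were adjusted by Benjamini-Hochberg over all 14736 tested genes, with a threshold of 0.05. Standard errors were derived from the log2 fold change and its F statistic (size over root of F). CPM used TMM-scaled library sizes, and errors beside them are SD. Alternatives were other scalings and filters, DESeq2 1.42.0, limma-voom (limma 3.58.1), a replicate block and leaving out each library. The tests were checked on simulated counts in which few genes changed, as many up as down. A far larger share of genes was called in these libraries, a setting that the check did not cover.

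The 39 genes and the 14 further lists were chosen with earlier results of these data known. All members were named, as were every divergent neighbour and the genes of smallest adjusted p in each list. From a list, 1 gene per direction was named where genes were called both ways, and otherwise 2. EME1, POLQ and NEIL3 were singled out after their values were seen. DMC1, PTPRC, KRT1, KRT10 and NBR2 were also named outside this rule. Of 242 list entries, 236 were in the table, 1 of them under an older symbol. Exon lengths are unions of exons in the basic annotation set of GENCODE 29. Some genes of these lists are not reported here by name. Promoters and starts are from RefSeq, build GRCh38.p14.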

Additional observations from a re-analysis of the deposited data

How the results depend on the processing

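No called fold change of the 39 genes changed direction in 14 alternatives. The number of the 39 genes that fell was 31 to 36 when 1 library was left out and 33 to 35 otherwise, and 0 rose in any. Over all tested genes, 3503 to 4722 fell and 3435 to 4833 rose when 1 library was left out, and 3985 to 4759 fell and 3778 to 4409 rose otherwise. Of 546 results for single members, 526 stayed on their side of the threshold, 17 no longer passed, 3 newly passed and 0 reversed. Those that no longer passed were of RBBP8, RAD50, RAD51D and DNA2; beyond those given above, RBBP8 missed with library-size scaling (adjusted p = 0.0528) and limma-voom (0.0542). PALB2 passed with upper-quartile scaling (0.0464). The titles do not say whether replicate numbers pair the samples. Deviations from the group means correlated at 0.0417, -0.0506 and -0.0161 over same-numbered libraries, and no library correlated best with its own number. With 3 libraries a group, these values do not settle whether same-numbered libraries shared a culture or day. With the replicate block, 33 members fell, without RBBP8 (adjusted p = 0.0584), as did 3985 of all genes, and 3875 rose. The scaling moved the median of all genes to between -0.09 and 0.01. With 3 libraries a group, and 10 counts in total for MND1 under simulated microgravity, the size of the largest falls is imprecise.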

Other observations

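Repair routes outside recombination gave further values. Of 7 mismatch repair genes, 6 fell and 1 was not called, at a median log2 fold change of -1.07. MSH6, which recognises mispaired bases, had 47.0 ± 0.934 CPM under simulated microgravity, against 123 ± 34.4 CPM at normal gravity (SD, n = 3 each), a log2 fold change of -1.39 (adjusted p = 0.000544, SE 0.20). PMS1, a MutL homologue, fell by 1.40 on the log2 scale (SE 0.19, adjusted p = 0.000434). Of 30 excision repair genes, 15 fell and 4 rose, with a median of -0.46. APEX1, the nuclease that cuts at sites without a base, had 82.5 ± 12.2 CPM under simulated microgravity against 232 ± 12.6 CPM at normal gravity and fell by 1.49 on the log2 scale (SE 0.13, adjusted p = 3.82e-05). TDG, the glycosylase that removes thymine from mismatches with guanine, had 67.7 ± 4.37 CPM under simulated microgravity against 41.8 ± 4.47 CPM at normal gravity and rose by 0.69 on the log2 scale (SE 0.11, adjusted p = 0.00108). The count of excision repair genes that rose was 1 or 2 when any library other than normal gravity 3 was left out, and 1 with upper-quartile scaling.

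NEIL3, a glycosylase that also unhooks cross-linked strands, was singled out after its value was seen. It had 0.287, 0.482 and 0.412 CPM under simulated microgravity, against 20.7, 24.4 and 8.26 CPM at normal gravity, and its log2 fold change of -5.49 (SE 0.48, adjusted p = 5.51e-05) was the lowest of the excision repair list. SYCP2, a protein of the meiotic chromosome axis, was not called at 1.18 on the log2 scale (SE 0.45, adjusted p = 0.0505), and its groups overlapped. The count of meiotic genes that rose was 1 with DESeq2, limma-voom, relative-log-expression scaling, library-size scaling or no filter, and 1 without normal gravity library 2 or 3.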
